A study of Mus musculus with 8 samples.

Results

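The genes described here are type I interferon-stimulated genes in mouse liver, a set of 43 gene symbols. It holds the receptor subunits for type I interferon, the transcription factors the receptor activates, and antiviral genes that these factors switch on. Members were the genes of the deposited expression table whose name was on that list. Of the 43 symbols, 41 were found among the 21899 genes of the table, and Mx1 and Mx2 had no match and were not analysed here. The expression filter kept 40 of the 41 members and 11380 genes in all. It removed Ifit1bl1, an IFIT family relative that had 5, 8, 0 and 9 reads in the deficient libraries and 14, 18, 8 and 5 reads in the wild-type (WT) libraries.

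RNA was sequenced from the livers of mice taken 8 h after concanavalin A (ConA), a jack bean lectin used to set off T cell-driven hepatitis in mice. WT mice and mice deficient in P2X4R, the product of P2rx4 and a cation channel opened by ATP, gave 4 libraries each. The sample labels describe the deficient genotype as a knockdown, the series text writes P2X4R-/-, and the altered stretch of the gene, strain, sex, age, ConA dose and batch were not given in the sources used here. All 8 livers received ConA, and livers without it were not analysed here, so an induction over resting liver could not be measured. Nothing in the labels says that the libraries came from separate animals, and the p-values below therefore describe the spread among these libraries, which may be technical in part. Below, the deficient or WT livers stand for the libraries of that group, and not for a number of animals.

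Type I interferons (the interferon-α family and interferon-β) bind a receptor made of IFNAR1 and IFNAR2. The kinases JAK1 and TYK2 then phosphorylate STAT proteins such as STAT2, which join IRF9 and bind interferon-stimulated response elements in the promoters of their targets. The target genes encode proteins that sense viral RNA and DNA, block viral translation and assembly, and dampen the signal again. Many of them also respond to interferon-γ, which ConA-activated T cells release in liver, and to interferon regulatory factors without any interferon.

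Each library held 15445285 to 16604190 counted reads. P2rx4 was present in all libraries, with means of 24.7 ± 5.33 CPM (SD, n = 4) for deficient livers and 55.9 ± 8.31 CPM (SD, n = 4) for WT livers. Here CPM is the read count scaled to a common library total with TMM factors, and a floor of 3 reads equals 0.172 to 0.211 CPM. Its log2 fold change was -1.18 (SE 0.19), with an edgeR adjusted p of 0.00481. The 6 hepatocyte marker genes found in the table summed to 68384.8 to 115026 CPM, so the liver label was borne out. The sums of the deficient livers, at most 95192.5 CPM, lay below those of the WT livers, at least 102545 CPM. Alb made up most of each sum, and its own edgeR adjusted p was 0.0884. Of the 6 genes only Cps1 had an edgeR adjusted p under 0.05 (0.022, lower in the deficient livers). Apoa1, Apob and Hnf4a overlapped between the groups, so the sums do not show that these markers fell as a set. In tissue of mixed cells a lower level can mean fewer cells of a type or less RNA per cell, and these cannot be told apart.

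Of the interferon-stimulated genes tested, Oasl1 and Trim25 were lower in the deficient livers beyond the spread of the libraries. Ifit1, Rsad2 and their like varied by up to 16-fold among the deficient libraries themselves. With edgeR's quasi-likelihood test adjusted over all tested genes, 0 of 40 members rose and 2 fell. The 2 that fell are 5% of the members. Over all 11380 genes tested, 9.27% rose and 10.6% fell (19.9% changed). The share of members that fell was thus below that of all genes in this test, but the order turned round in others. DESeq2 called 8 members lower (20%, against 13.9% of all genes) and limma-voom 10 (25%, against 11.3%). The test without deficient library 4 called 9 (22.5%, against 8.74%), and that without deficient library 2 called 5 (12.5%, against 11.3%). Without deficient library 3 it was 1 member (2.5%, against 5.61%), as it was without WT library 3 (2.5%, against 4.54%). At an unadjusted p under 0.05 there were 2 members higher, Zbp1 and Ifnar1, and 13 lower, against 17.2% and 18% of all genes (35.2% in either direction). The estimate was below 0 for 31 members and above 0 for 9. The median log2 fold change of the members was -0.35, with a range of -1.48 to 0.46, against a median of -0.0015 over all genes.

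**Figure D1:**
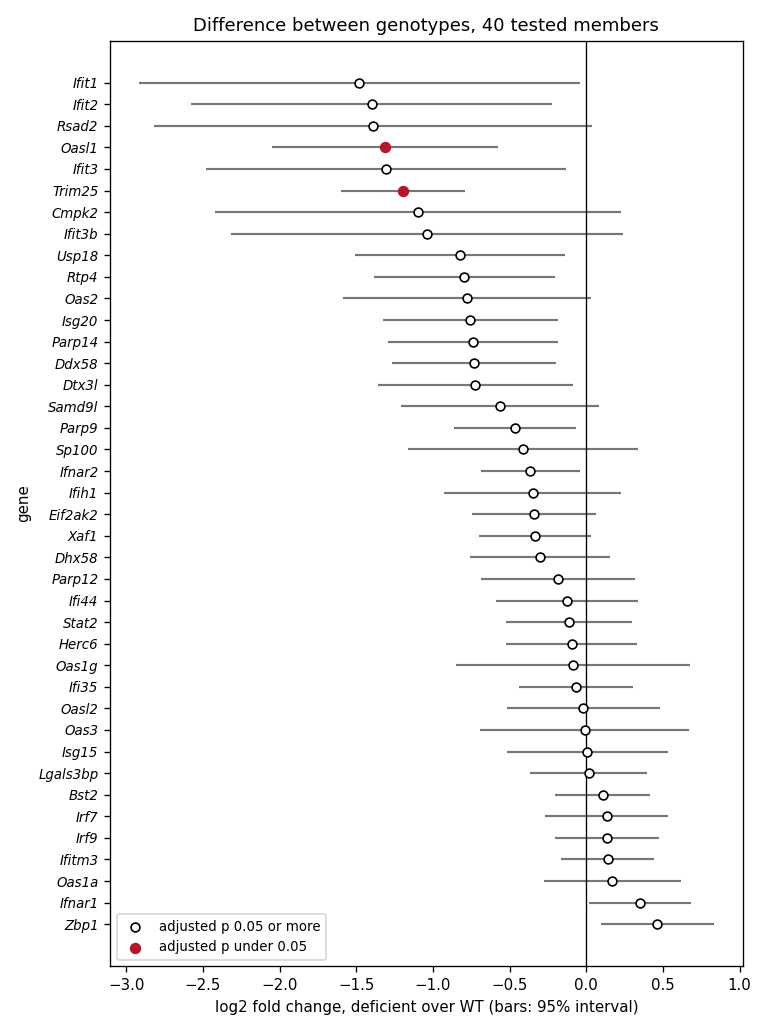
Log2 fold change of each of the 40 tested members, deficient over WT (points), with its 95% interval (bars). Filled points mark Oasl1 and Trim25, the members with an adjusted p under 0.05. The intervals of the IFIT genes, Rsad2 and Cmpk2 were the widest, and the values ran from -1.48 for Ifit1 to 0.46 for Zbp1.

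The width of the intervals sets what can be said of the 38 members that did not pass the test. For 23 of them the 95% interval lay within 2-fold in both directions. For 15 it reached a level 2-fold lower in the deficient livers, and for 0 it reached a level 2-fold higher. The groups did not overlap for 4 members, each lower in the deficient livers, namely Ddx58, Ifit2, Oasl1 and Trim25. That is 10% of the members, against 12.3% of all genes. In the opposite direction it was 0 members, against 12.7% of all genes (24.9% in either direction).

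Deficient libraries 1 and 3 stood apart from deficient libraries 2 and 4 in these genes. Both lay below libraries 2 and 4 in 26 of 40 members and above them in 0, while over all genes both lay below in 20.7%. The opposite order was not counted over all genes. This pair was picked after its values in these genes were seen, so the counts describe the members and test nothing. Over the whole table libraries 1 and 3 were not alike. The chi-square per degree of freedom between them was 109.41, the highest of any pair within a group. Between libraries 2 and 4 it was 32.2. Deficient library 1 was the lowest of its group in 25 members, library 3 in 9, library 2 in 6 and library 4 in 0. Over all genes these libraries were the lowest in 30.6%, 25.9%, 24.2% and 19.2%. Deficient library 4 was the highest of its group in 29 members, against 22.2% of all genes. Both library 1 and library 3 of the deficient livers were below every WT library in 25 members, against 22.3% of all genes. Deficient library 4 was below every WT library in 8 members and above every WT library in 12, against 28% and 29.2% of all genes. For deficient library 2 these counts were 18 and 2 members, against 25.9% and 27% of all genes. Among the WT livers, library 3 was the highest in 17 members and library 4 in 3, against 25.3% and 20.7% of all genes. With deficient libraries 1 and 3 left out together, a choice made after seeing the data, 1 member fell (Trim25) and 0 rose, where 1.28% of all genes fell and 0.774% rose.

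**Figure D2:**
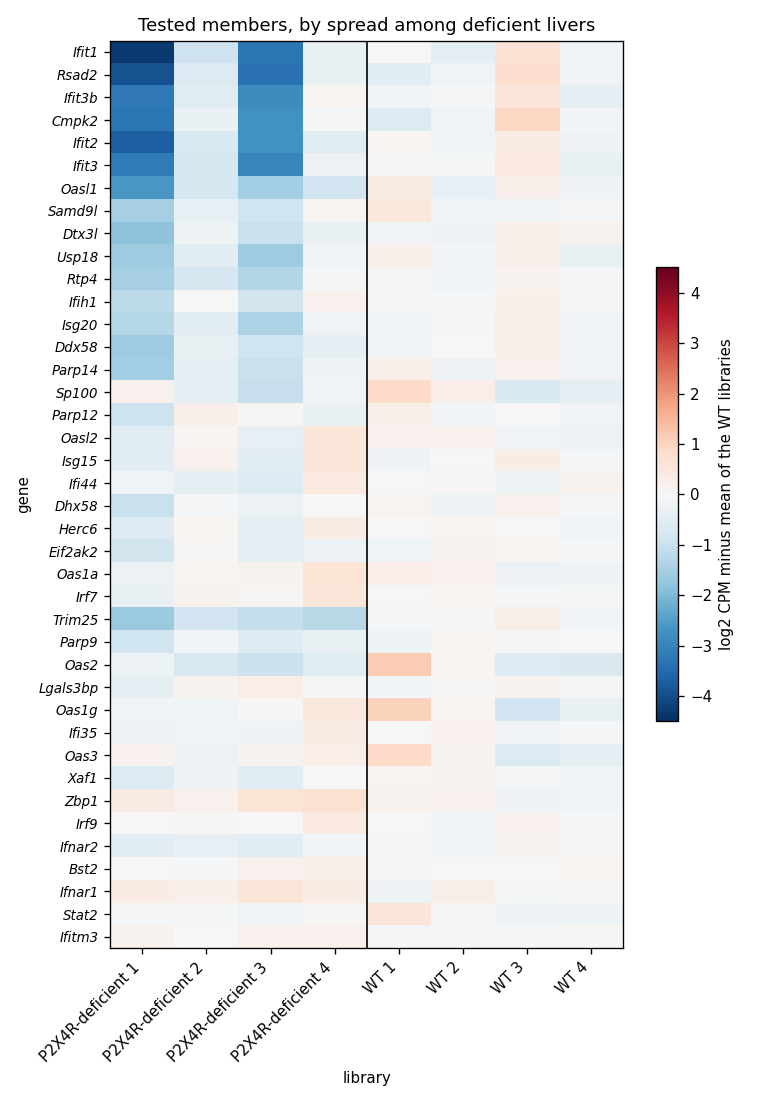
Level of each tested member in each of the 8 libraries, as log2 CPM minus the mean of the 4 WT libraries (colour, blue for lower and red for higher), with members ordered by the spread among the deficient livers. Deficient libraries 1 and 3 are dark blue in the top rows (Ifit1, Rsad2, Ifit3b, Cmpk2, Ifit2 and Ifit3). Deficient libraries 2 and 4 are nearer to the WT livers there. Both still lie below every WT library for Ifit2, as does library 2 for Ifit1, Ifit3, Ifit3b and Rsad2.

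The highest deficient library was at least 4 times the lowest in 6 members, Ifit1, Ifit2, Ifit3, Ifit3b, Rsad2 and Cmpk2. That is 15% of the members, against 4.78% of all genes. No member, that is 0 of 40, had such a spread among the WT livers, against 6.11% of all genes. The median ratio of the highest to the lowest library was 2.01 for the members in the deficient livers and 1.38 in the WT livers. Over all genes these medians were 1.63 and 1.55. The ratio was wider in the deficient livers for 34 of 40 members (85%), compared with 54.9% of all genes.

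**Figure D3:**
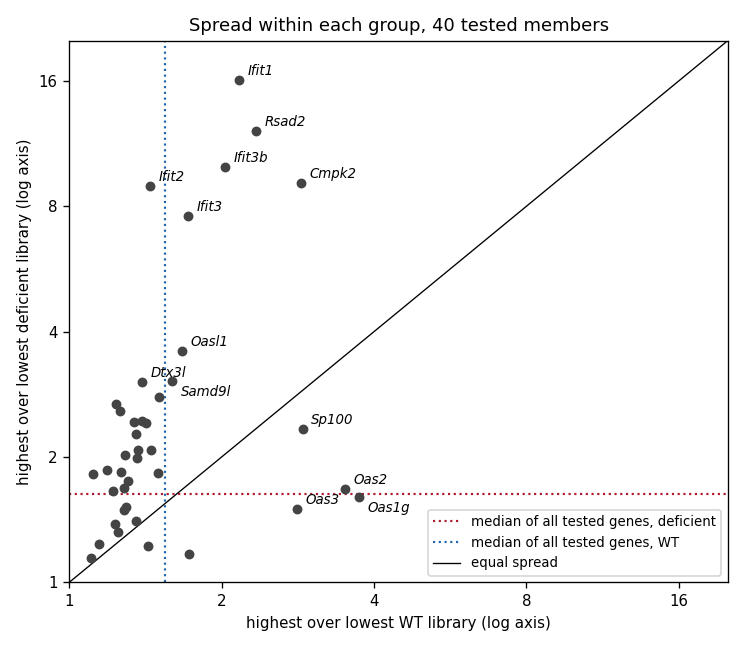
Ratio of the highest to the lowest library among the WT livers (horizontal, log axis) and among the deficient livers (vertical, log axis) for the 40 tested members, with the diagonal marking equal spread and dotted lines the medians of all tested genes. The 6 members above a ratio of 4 on the vertical axis are Ifit1, Ifit2, Ifit3, Ifit3b, Rsad2 and Cmpk2, and the OAS genes Oas1g, Oas2 and Oas3 lie below the diagonal.

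The interferon genes themselves were barely detected. Of 17 type I interferon genes in the table, 14 had 0 reads in every library, which allows up to 3 reads in each. Ifnb1, which encodes interferon-β, had 4, 2, 0 and 7 reads in deficient libraries 1 to 4 and 6, 1, 4 and 5 reads in WT libraries 1 to 4, too few for a comparison. Ifng, which encodes the type II interferon, had 10, 18, 19 and 9 reads in the deficient and 27, 39, 15 and 25 reads in the WT livers. Its mean was 0.834 ± 0.319 CPM (SD, n = 4) for deficient livers and 1.76 ± 0.727 CPM (SD, n = 4) for WT livers, and the groups overlapped. The log2 difference of Ifng was -1.07 (SE 0.43, edgeR adjusted p = 0.0944).

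Neither receptor subunit passed the test. Ifnar1 was at 31.5, 29.8, 36.4 and 31.9 CPM in deficient libraries 1 to 4 and at 21.3, 30.5, 23.5 and 26.3 CPM in WT libraries 1 to 4. WT library 2 lay within the deficient range, and the other WT libraries lay below it. The log2 difference of Ifnar1 was 0.35 (SE 0.15, edgeR adjusted p = 0.125). Ifnar2 was at 22.8, 25.0, 22.3 and 29.4 CPM in the deficient and at 31.1, 28.3, 35.4 and 33.3 CPM in the WT livers. Only deficient library 4 reached the WT range. The log2 difference of Ifnar2 was -0.36 (SE 0.15, edgeR adjusted p = 0.099). Mean levels per transcript length were 5.74 and 4.06 FPKM for Ifnar1, and 7.85 and 9.15 FPKM for Ifnar2, in deficient and WT livers.

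Among the 3 transcription factors of the pathway, 0 passed the test. Irf7, which drives interferon-α genes and is itself induced by interferon, had the highest level of the 3, with means of 57.8 FPKM in deficient and 47.8 FPKM in WT livers. It was at 152, 209.5, 196 and 275 CPM in the deficient and at 190.2, 204, 183 and 183 CPM in the WT livers. The deficient values straddled the narrow WT range (log2 difference 0.13, SE 0.18, edgeR adjusted p = 0.642). Irf9, the DNA-binding partner of the STATs, was at 43.2, 44, 42.3 and 58.6 CPM in the deficient and at 42.3, 39.5, 48.7 and 41.1 CPM in the WT livers. Deficient library 4 was the highest of all 8, and the remaining values overlapped (log2 difference 0.13, SE 0.15, edgeR adjusted p = 0.573). Stat2 was at 89.2, 86.7, 82.3 and 96.3 CPM in the deficient and at 136, 88.3, 79.7 and 79.0 CPM in the WT livers. WT library 1 stood above the others, and the log2 difference was -0.11 (SE 0.19, edgeR adjusted p = 0.708). In the table's coordinates Irf9 overlaps Rnf31 on the same strand, and Irf7 overlaps Phrf1 on the opposite strand. How reads in these overlaps were counted was not stated, so they may be mixed.

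Among the 4 nucleic acid sensors, 0 passed the test. Ddx58 encodes RIG-I, a sensor of viral RNA ends. It was at 20.6, 49.9, 33.4 and 47.6 CPM in deficient livers 1 to 4 and at 56.1, 63.1, 75.4 and 57.4 CPM in WT livers 1 to 4. Every deficient library was below every WT library, and deficient library 1 was the lowest. Its log2 difference was -0.73 (SE 0.25, 95% interval -1.27 to -0.20, edgeR adjusted p = 0.0544). Ddx58 passed the test in 5 of the 19 alternatives, among them DESeq2 and limma-voom, each time lower in the deficient livers. Zbp1, a sensor of left-handed nucleic acid that can trigger necroptosis, had the highest level of the sensors at 50.7 FPKM in deficient and 33.2 FPKM in WT livers. It was at 157, 140.0, 186 and 196 CPM in the deficient and at 135, 141, 104 and 112 CPM in the WT livers. Only WT library 2 reached the deficient range, and the log2 difference was 0.46 (SE 0.17, edgeR adjusted p = 0.071). Zbp1 passed the test in 5 of the 19 alternatives, among them DESeq2 and the test without deficient library 2, each time higher in the deficient livers. Ifih1, which encodes the RNA sensor MDA5, was at 49.3, 114, 64.1 and 127 CPM in the deficient and at 106, 109, 132 and 105 CPM in the WT livers. Deficient libraries 1 and 3 were far below the rest, while libraries 2 and 4 lay within the WT range. The log2 differences were -0.35 for Ifih1 (SE 0.27, edgeR adjusted p = 0.377) and -0.30 for Dhx58, which encodes the regulatory helicase LGP2 (SE 0.21, edgeR adjusted p = 0.33).

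The IFIT genes encode a family of antiviral proteins, of which IFIT1 binds viral RNA lacking the host cap methylation and blocks its translation. These genes showed the widest range among the deficient livers of any role group. Ifit1 was at 26.4, 271, 54.6 and 424 CPM in deficient libraries 1 to 4, a ratio of 16 between the highest and the lowest. In WT libraries 1 to 4 it was at 511, 380.2, 822 and 452 CPM, a ratio of 2.16. Below every WT library were deficient libraries 1 and 3, library 2 was also below the WT range, and library 4 was within it. Ifit2 was at 41.3, 337, 81.6 and 369.9 CPM in the deficient and at 579.9, 468, 675 and 467 CPM in the WT livers. All deficient libraries lay below all WT libraries, with libraries 1 and 3 far lower than 2 and 4. Ifit3 was at 68.1, 360.5, 79.4 and 515 CPM in the deficient and at 587, 599.6, 849 and 495 CPM in the WT livers. Again libraries 1 and 3 were low, and deficient library 4 lay above the lowest WT library.

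Of the 4 tested IFIT genes, 0 passed the test. The log2 differences were -1.48 for Ifit1 (SE 0.66, edgeR adjusted p = 0.131), -1.40 for Ifit2 (SE 0.54, adjusted p = 0.0861), -1.31 for Ifit3 (SE 0.54, adjusted p = 0.106) and -1.04 for Ifit3b (SE 0.59, adjusted p = 0.234). Without deficient libraries 1 and 3 the log2 differences were -0.64, -0.63, -0.53 and -0.23 in the same order, with edgeR adjusted p from 0.112 to 0.689. Without deficient library 4 Ifit1 and Ifit3 did pass, at -2.22 (edgeR adjusted p = 0.0454) and -1.92 (adjusted p = 0.0348). So did Ifit1, Ifit2 and Ifit3 in limma-voom, with adjusted p of 0.0446, 0.0352 and 0.0387, and Ifit2 in limma on log2(FPKM + 1), with an adjusted p of 0.0493. Ifit3 and Ifit3b are near-identical copies, so how reads were shared between them is uncertain. Ifit3 had the highest level of the family, 152 FPKM in deficient and 343 FPKM in WT livers. All 5 IFIT members lie within 100 kb of another member on chromosome 19, from 34528094 (Ifit2) to 34627409 (Ifit1) as the table lists them, whose build was not stated in the labels or headers.

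Rsad2 and Cmpk2 lie 12.75 kb apart on opposite strands of chromosome 12, as listed in the table, and showed the same order of deficient libraries as Ifit1. Rsad2 encodes viperin, which makes a chain-terminating nucleotide, and Cmpk2 encodes a mitochondrial nucleotide kinase that helps supply its substrate. Rsad2 was at 52.7, 531, 79.0 and 639 CPM in deficient libraries 1 to 4 and at 587, 724, 1372 and 726 CPM in WT libraries 1 to 4. Far below the rest were deficient libraries 1 and 3, and WT library 3 was the highest. Cmpk2 was at 21.9, 172, 31.9 and 199 CPM in the deficient and at 138, 183, 397 and 191 CPM in the WT livers. Deficient libraries 2 and 4 lay within the WT range for Cmpk2, and libraries 1 and 3 below it. The log2 difference was -1.39 for Rsad2 (SE 0.66, edgeR adjusted p = 0.153) and -1.10 for Cmpk2 (SE 0.61, adjusted p = 0.225). Without deficient libraries 1 and 3 these were -0.54 (adjusted p = 0.344) and -0.29 (adjusted p = 0.681).

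**Figure D4:**
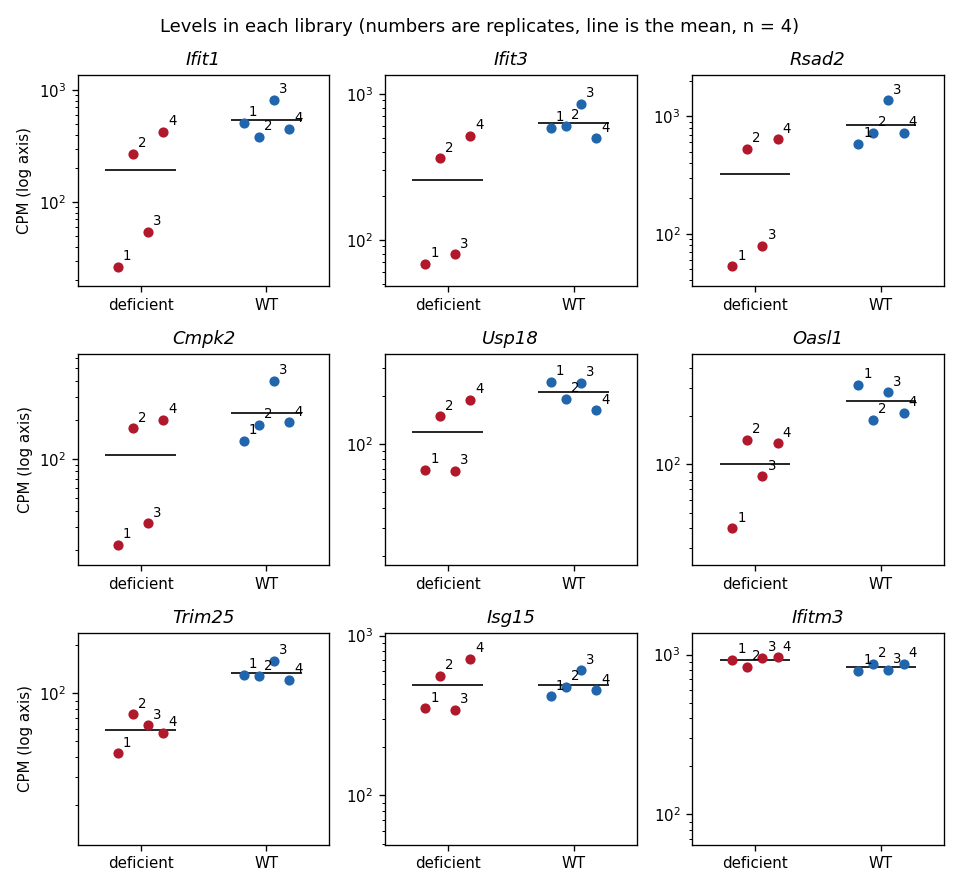
CPM (log axis) of 9 members in each deficient (red) and WT (blue) library, with the replicate number beside each point and a line at the mean of 4. For Ifit1, Ifit3, Rsad2 and Cmpk2 deficient libraries 1 and 3 lie far below libraries 2 and 4, for Oasl1 and Trim25 all deficient libraries lie below all WT libraries, and for Isg15 and Ifitm3 the groups overlap.

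The interferon-stimulated response element contains a repeated core, searched for here as GAAANNGAAA on both strands (TTTCNNTTTC on the opposite strand). The window ran from 250 bases before to 50 after the transcription start of RefSeq genes on GRCm38.p6. Of the 41 members in the expression table, 34 had a promoter entry. The others were Dhx58, Zbp1, Oas2, Usp18, Parp9, Parp14 and Rtp4. The core was present in 15 of the 34 (44.1%), against 3.99% of the 27025 gene symbols with a promoter entry. It was present in 4 of the 6 members with a deficient ratio of 4 or more, Ifit1, Ifit3, Ifit3b and Rsad2, and in 10 of the 27 tested members with a smaller ratio. Shown first are the 160 bases before the start of 3 members with a wide deficient spread, 5′ to 3′ on the strand of the gene, with each core in capitals. The regions are chr19:34640729-34640888 (plus strand) for Ifit1, chr19:34583369-34583528 (plus strand) for Ifit3 and chr12:26456453-26456612 (minus strand) for Rsad2.
Ifit1: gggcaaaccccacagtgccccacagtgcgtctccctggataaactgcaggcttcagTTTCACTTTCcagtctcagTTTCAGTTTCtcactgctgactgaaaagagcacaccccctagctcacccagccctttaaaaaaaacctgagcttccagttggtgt
Ifit3: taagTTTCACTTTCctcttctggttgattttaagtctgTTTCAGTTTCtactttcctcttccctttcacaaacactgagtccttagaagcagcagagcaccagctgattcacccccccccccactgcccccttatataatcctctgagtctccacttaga
Rsad2: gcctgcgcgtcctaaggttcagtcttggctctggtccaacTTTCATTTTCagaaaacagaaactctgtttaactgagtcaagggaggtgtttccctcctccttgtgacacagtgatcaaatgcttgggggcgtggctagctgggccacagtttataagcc

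Ifit1 and Ifit3 each carry 2 cores in this stretch, and Rsad2 carries 1. The matching stretches of Isg15 and Bst2 are also shown. These members were chosen for near-equal mean levels between the genotypes, and not by spread. Their deficient ratios were 2.08 for Isg15 and 1.23 for Bst2. The stretches cover chr4:156200819-156200978 (minus strand) for Isg15 and chr8:71537473-71537632 (minus strand) for Bst2. They hold 3 and 2 overlapping cores, again in capitals.
Isg15: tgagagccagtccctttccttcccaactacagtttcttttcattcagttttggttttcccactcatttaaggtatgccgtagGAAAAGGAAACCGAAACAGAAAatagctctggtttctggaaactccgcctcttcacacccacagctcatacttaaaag
Bst2: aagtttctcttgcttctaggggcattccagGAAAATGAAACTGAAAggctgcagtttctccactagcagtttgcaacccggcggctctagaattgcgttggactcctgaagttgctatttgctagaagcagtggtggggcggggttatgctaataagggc

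Oasl1 and Trim25, the members that fell, had no match to the core in their windows, which says only that these letters are not there. Their stretches are given in the same way, from chr5:114923080-114923239 (plus strand) for Oasl1 and chr11:88999243-88999402 (plus strand) for Trim25. A match to the core is a description of the sequence and not a measured binding site.
Oasl1: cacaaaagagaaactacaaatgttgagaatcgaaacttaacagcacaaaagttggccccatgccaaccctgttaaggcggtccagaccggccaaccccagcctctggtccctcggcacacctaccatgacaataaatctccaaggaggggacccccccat
Trim25: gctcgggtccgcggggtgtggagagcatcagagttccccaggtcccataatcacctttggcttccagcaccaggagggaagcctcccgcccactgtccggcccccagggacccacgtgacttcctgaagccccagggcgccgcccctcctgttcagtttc

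The OAS genes make a short oligoadenylate that activates RNase L, which then degrades viral and cellular RNA, whereas Oasl1 lacks that activity and in mouse represses translation of Irf7 mRNA. Oasl1 was the only one of these 6 genes to pass the test. Oasl1 (ENSMUSG00000041827, chromosome 5, 115061299 to 115075974, plus strand as listed) was at 39.8, 143, 84.1 and 135 CPM in deficient libraries 1 to 4. In WT libraries 1 to 4 it was at 316, 189, 283 and 209.8 CPM. Every deficient library was below every WT library, and deficient library 1 was the lowest. Group means of Oasl1 were 101 ± 48.1 CPM (SD, n = 4) for deficient livers and 249.6 ± 59.9 CPM (SD, n = 4) for WT livers. Its log2 fold change was -1.31 (SE 0.34), with an edgeR adjusted p of 0.021. That is a fall to 40.3% of the WT level, with a 95% interval of 24.2% to 67.1%. The call was lost without deficient library 3 (edgeR adjusted p = 0.0629), without WT library 3 (adjusted p = 0.0596) and without deficient libraries 1 and 3 together (-0.84, adjusted p = 0.0802).

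Of the other 5 tested OAS family genes, 0 passed the test. Oas1a was at 20.5, 27.1, 27.5 and 37.5 CPM in the deficient and at 30.6, 28.1, 20.4 and 21.0 CPM in the WT livers, with full overlap (log2 difference 0.17, SE 0.21, edgeR adjusted p = 0.589). Oas2 was at 7.06, 4.97, 4.22 and 5.63 CPM in the deficient and at 18.2, 8.72, 5.41 and 5.19 CPM in the WT livers. WT library 1 was the highest for Oas1a, Oas1g, Oas2 and Oas3. The highest-to-lowest ratios of Oas1g, Oas2 and Oas3 were 3.73, 3.51 and 2.82 in WT livers, and 1.60, 1.67 and 1.5 in deficient livers, the reverse of most members. Log2 differences were -0.78 for Oas2 (SE 0.37, edgeR adjusted p = 0.157), -0.09 for Oas1g (adjusted p = 0.886), -0.01 for Oas3 (adjusted p = 0.987) and -0.02 for Oasl2 (adjusted p = 0.965). Oas1a and Oas1g are near-identical copies whose reads may not be separated. As listed in the table, Oas1a, Oas1g, Oas3 and Oas2 lie 1.8 to 1.958 Mb from P2rx4, and Oasl1 and Oasl2 7.77 and 7.795 Mb from it, on the same chromosome. Whether that nearness bears on the Oasl1 difference was not tested.

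Genes of ISG15 conjugation and ubiquitin ligation held the other member that fell. Trim25 encodes a ubiquitin ligase that activates RIG-I and also joins ISG15 to target proteins. Trim25 (ENSMUSG00000000275, chromosome 11, 88890202 to 88911119, plus strand as listed) was at 42.1, 73.7, 62.9 and 56.4 CPM in deficient libraries 1 to 4 and at 130.0, 128, 159 and 122 CPM in WT libraries 1 to 4. The groups were well separated, and deficient library 4 was as low as the others, unlike in the IFIT genes. Trim25 averaged 58.8 ± 13.2 CPM (SD, n = 4) for deficient livers and 134 ± 16.5 CPM (SD, n = 4) for WT livers. Its log2 fold change was -1.19 (SE 0.19), with an edgeR adjusted p of 0.00444. That is a fall to 43.7% of the WT level, with a 95% interval of 33.0% to 57.9%. It fell in all 19 settings tried, those without each library included.

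Isg15, the ubiquitin-like protein itself, was among the most abundant members, at 732 FPKM in deficient and 659 FPKM in WT livers. It was at 351, 559.6, 343 and 713 CPM in the deficient and at 417, 479.9, 606 and 454 CPM in the WT livers. Deficient libraries 1 and 3 lay below and library 4 above the whole WT range, so the means were almost equal. The log2 difference of Isg15 was 0.01 (SE 0.24, 95% interval -0.52 to 0.53, edgeR adjusted p = 0.987). Usp18, which removes ISG15 and blocks the receptor as a feedback inhibitor, was at 69.0, 149, 67.8 and 189 CPM in the deficient and at 245, 192, 242 and 163 CPM in the WT livers. Only deficient library 4 reached the WT range, and libraries 1 and 3 were the lowest. The log2 difference of Usp18 was -0.82 (SE 0.31, edgeR adjusted p = 0.0831). Dtx3l, a ubiquitin ligase that works with PARP9, was at 35.9, 109, 63.3 and 101 CPM in the deficient and at 112, 108, 149.6 and 139.9 CPM in the WT livers, where deficient library 2 alone reached the WT range. The log2 differences were -0.72 for Dtx3l (SE 0.29, edgeR adjusted p = 0.0976) and -0.10 for Herc6, the mouse ligase for ISG15 (SE 0.20, adjusted p = 0.761). Dtx3l overlaps Parp9 on the opposite strand, and the use of strand in counting was not stated, so their reads may be mixed.

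The PARP genes encode ADP-ribosyltransferases. Parp14, which acts in cytokine signalling, was at 104, 216, 148 and 251 CPM in the deficient and at 347, 245, 339 and 269 CPM in the WT livers. Only deficient library 4 reached above the lowest WT library. The log2 difference of Parp14 was -0.74 (SE 0.25, 95% interval -1.29 to -0.18, edgeR adjusted p = 0.0592). Parp9 had the highest level of the 3, 33.8 FPKM in deficient and 42.2 FPKM in WT livers. It was at 117, 197, 144 and 170.0 CPM in the deficient and at 184, 236, 227 and 221 CPM in the WT livers, and deficient library 2 alone reached the WT range. The log2 differences were -0.47 for Parp9 (SE 0.18, edgeR adjusted p = 0.0883) and -0.19 for Parp12 (SE 0.23, adjusted p = 0.601).

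Among the membrane proteins, Ifitm3 and Bst2 had close mean levels in both genotypes. Ifitm3, which hinders the fusion of viruses with endosomes, was the most abundant member by length, at 1428 FPKM in deficient and 1170.3 FPKM in WT livers. It was at 926, 839, 954 and 962 CPM in the deficient and at 792, 870.2, 803 and 876 CPM in the WT livers. The values overlapped, and the ratio of the highest to the lowest library was 1.15 in deficient and 1.11 in WT livers. Its log2 difference was 0.14 (SE 0.14, 95% interval -0.16 to 0.44, edgeR adjusted p = 0.507). Bst2, or tetherin, which holds budding viruses at the cell surface, had a log2 difference of 0.11 (SE 0.14, 95% interval -0.21 to 0.42, edgeR adjusted p = 0.632) at 254 FPKM in deficient and 213 FPKM in WT livers. Rtp4, an interferon-induced inhibitor of flavivirus replication, was at 39.3, 65.5, 43.7 and 105 CPM in the deficient and at 115, 99.1, 123 and 104 CPM in the WT livers. Its deficient library 4 was in the WT range and the other 3 were below it (log2 difference -0.80, SE 0.27, edgeR adjusted p = 0.057). Rtp4 overlaps Masp1, a gene of complement activation, in the table's coordinates.

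Among effectors on RNA and translation, 0 of 3 passed the test. Isg20, an RNA exonuclease, was at 25.8, 44, 23.4 and 57.1 CPM in the deficient and at 58.0, 65.1, 76.1 and 54.7 CPM in the WT livers. Deficient library 4 alone reached the WT range, and libraries 1 and 3 were the lowest (log2 difference -0.76, SE 0.26, edgeR adjusted p = 0.0608). Samd9l, which restricts poxviruses, was at 32.6, 71.7, 49.7 and 99.2 CPM in the deficient and at 128, 79.9, 79.9 and 86.5 CPM in the WT livers, and only deficient library 4 lay in the WT range. Its log2 difference was -0.56 (SE 0.30, edgeR adjusted p = 0.2). Eif2ak2 encodes PKR, a kinase that halts translation when it binds viral RNA, and its log2 difference was -0.34 (SE 0.19, edgeR adjusted p = 0.216).

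The other 5 members did not pass the test either. Xaf1, which favours apoptosis, was at 55.6, 71.7, 58.8 and 82.9 CPM in the deficient and at 91.1, 94.7, 80.3 and 73.8 CPM in the WT livers (log2 difference -0.34, SE 0.17, edgeR adjusted p = 0.174). Deficient library 4 reached the WT range and the rest lay below it. Lgals3bp, a secreted glycoprotein, had the highest level of the 5 at 60.9 FPKM in deficient and 54.4 FPKM in WT livers. It was at 121, 182, 201 and 157 CPM in the deficient and at 148, 169, 180.4 and 156 CPM in the WT livers, with the WT values inside the deficient range. Ifi35 was at 24.1, 25.1, 24.8 and 36.5 CPM in the deficient and at 28.9, 33.3, 25.7 and 27.8 CPM in the WT livers. Deficient libraries 1 to 3 lay just below the WT livers and library 4 above them. Log2 differences were 0.02 for Lgals3bp, -0.07 for Ifi35, -0.13 for Ifi44 and -0.41 for Sp100, a nuclear body protein, with edgeR adjusted p from 0.427 to 0.962.

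Genes of the same pathway outside the member list moved in both directions. Of 91 symbols listed for them, 88 were in the table and 65 were tested (24.6% changed, against 19.9% of all genes). In the deficient livers 6 of the 65 were higher, a share near the 9.27% of all genes that rose. Lower were 10 of the 65 (15.4%, against 10.6% of all genes). Among the symbols without a match, Tmem173 and Mb21d1 are older names of Sting1 and Cgas, which were found. Without deficient libraries 1 and 3 together, 2 pathway genes rose and 3 fell, where 0.774% of all genes rose and 1.28% fell. The count of pathway genes that fell was 16 without deficient library 2, 4 without deficient library 3 and 5 without WT library 3. The share of all genes that fell moved with it, at 11.3%, 5.61% and 4.54% in the same order. On the log2 scale Mavs, the mitochondrial adaptor for RIG-I and MDA5, rose by 1.05 (SE 0.20, edgeR adjusted p = 0.00721). Pias4, an inhibitor of STAT signalling, rose by 1.13 (SE 0.17, adjusted p = 0.00419), and Parp11 by 1.86 (SE 0.27, adjusted p = 0.00419). The call of Mavs was lost without deficient libraries 1 and 3 together (0.96, adjusted p = 0.0607).

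Regulators of interferon production moved both ways. Of the 15 tested, 3 fell (20%, against 10.6% of all genes), namely Irf1, Irf5 and Ikbke. The 2 that rose, where 9.27% of all genes rose, were Mavs and Ticam1. The log2 difference of Ticam1 was 0.56 (SE 0.17, edgeR adjusted p = 0.0359). Irf1, a transcription factor induced by interferon-γ, was at 185, 421, 190.5 and 508 CPM in the deficient and at 905, 534, 853 and 919 CPM in the WT livers. The groups did not overlap, deficient libraries 1 and 3 were the lowest, and Irf1 fell, with a log2 fold change of -1.30 (SE 0.33) and an edgeR adjusted p of 0.0195. The Irf1 call was lost without deficient library 3 (adjusted p = 0.0537), without WT library 3 (adjusted p = 0.0523) and without deficient libraries 1 and 3 together (-0.79, adjusted p = 0.101). On the log2 scale Irf5, a transcription factor for inflammatory cytokines, fell by 1.20 (SE 0.16, adjusted p = 0.00387), and Ikbke, a kinase that activates IRF3 and IRF7, fell by 1.24 (SE 0.29, adjusted p = 0.0156). Socs3, a feedback inhibitor of cytokine receptors, fell by 1.55 (SE 0.25, adjusted p = 0.00481), and Uba7, the activating enzyme for ISG15, fell by 1.18 (SE 0.27, adjusted p = 0.0141). Ikbke (adjusted p = 0.132) and Uba7 (adjusted p = 0.116) were not called without deficient libraries 1 and 3 together. The order of deficient libraries seen in Ifit1 was also present in Cxcl10, a chemokine named after its values were seen. Cxcl10 was at 238, 1382, 292 and 1640.3 CPM in the deficient and at 3808, 2495, 3946 and 3659.8 CPM in the WT livers. All deficient libraries were below all WT libraries, with 1 and 3 the lowest, and Cxcl10 fell, with a log2 fold change of -1.97 (SE 0.53) and an edgeR adjusted p of 0.0255. That call too was lost without deficient library 3 (adjusted p = 0.0589) and without WT library 3 (adjusted p = 0.064).

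Markers of other cell types varied between the livers as well, and their part in the results above was not tested. The 7 neutrophil markers summed to 84.1, 77.8, 79.0 and 154 CPM in deficient libraries 1 to 4 and to 88.3, 63.2, 24.9 and 22.0 CPM in WT libraries 1 to 4, with 2 of 6 tested markers higher. The 6 Kupffer cell markers summed to between 24.5 and 29.9 CPM in the deficient and to 101, 50.5, 37.0 and 28.7 CPM in WT libraries 1 to 4, with 3 of 6 tested lower. WT library 1 was thus far above the other WT libraries, and WT library 4 lay within the deficient range. The 6 markers of plasmacytoid dendritic cells, which release much type I interferon, summed to 21.5, 23.8, 22.6 and 10.3 CPM in the deficient and to 6.64, 22.7, 12.5 and 9.17 CPM in the WT livers, with 1 tested and 0 changed. Ly6d, the 1 tested, made up most of each sum, at 20.6, 22.4, 21.5 and 9.59 CPM in the deficient and 4.94, 21.8, 11.9 and 8.20 CPM in the WT livers. Siglech had 1 to 6 reads per library, so these sums do not measure the number of such cells. The 6 T cell markers summed to between 5.19 and 7 CPM in the deficient and between 5.27 and 8.86 CPM in the WT livers, with 0 of 3 tested changed. The 4 cholangiocyte markers summed to 23.2, 104, 25.5 and 22.5 CPM in the deficient and to between 154 and 171 CPM in the WT livers without overlap, with Sox9 lower among 4 tested (log2 fold change -2.06, SE 0.55, edgeR adjusted p = 0.0248). Sox9 alone separated the groups, at 9.65, 96.7, 21.1 and 18.7 CPM in the deficient and 146, 144, 164 and 152 CPM in the WT livers. Krt19, Krt7 and Epcam overlapped between the groups (edgeR adjusted p = 0.293, 0.483 and 0.511). The 5 stellate cell markers summed to between 89.2 and 147 CPM in the deficient and between 142 and 219.9 CPM in the WT livers, with 2 of 5 tested lower. The 5 natural killer cell markers summed to between 3.79 and 7.70 CPM in the deficient and between 7.12 and 12.1 CPM in the WT livers, and the 1 marker tested, Gzma, was lower. Endothelial cell markers had 1 of 6 tested lower, monocyte markers 1 of 3 higher, and B cell markers 0 of 1 changed, and the sums of each overlapped between the groups. The 6 hepatocyte markers, most of whose sum is Alb, summed to 68384.8, 95192.5, 83453.3 and 82850.2 CPM in deficient libraries 1 to 4. The sum was lowest in library 1, and 1 of 6 tested, Cps1, was lower.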

How the data were processed

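Liver RNA was sequenced in 8 libraries, grouped by the genotype in the labels. Per the labels' protocols, polyadenylated RNA was selected and cDNA was made with random primers. Per the file headers, each gene of the deposited table has raw counts and FPKM values per library. FPKM, made by the authors, is the count per gene length and library total, and recomputing it from the deposited counts gave values within 7e-05%. The submitters' processing notes name cutadapt and HISAT2 2.0.5. The counting program, strand use, annotation and genome build were not given in the sources used here, so gene coordinates are those listed in the table. A symbol was matched exactly to the gene name in the table.

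Counts were tested with edgeR 4.0.16 (R 4.3.3), its quasi-likelihood test, TMM scaling and its default filter, without covariates, as deficient against WT. The filter kept 11380 of 21899 genes, of which 5754 had 0 reads throughout. Benjamini-Hochberg adjustment covered all tested genes, at a threshold of 0.05. The standard error is the size of the log2 fold change divided by the square root of the F statistic. Replicate libraries differed beyond counting noise (chi-square per degree of freedom 21.53 to 109.41). Same-numbered libraries of the groups did not deviate together (correlations -0.114 to 0.132), and the numbers were not used as pairs in the main test. With 4 libraries per group these correlations cannot exclude a shared batch. Floors cover counting error only. The script was tested on simulated data. Alternatives were DESeq2 1.42.0, limma 3.58.1 on log2 FPKM (pseudocounts 1 and 0.1) for genes that reached 0.5 FPKM in 4 libraries, limma-voom, other scalings and filters, a block for the replicate number, and the omission of each library in turn. The members and lists were chosen with earlier results of these data known. Library values are given for members past the threshold, the smallest p and highest FPKM of each role group, the receptor subunits and members with a library far from its group. They are also given for Ifit1, Rsad2, Cmpk2, Usp18, Oas1a, Oas2, Dtx3l and Cxcl10, chosen after their values were seen. Promoter sequences are from RefSeq on GRCm38.p6. The values of 1 pathway gene are not reported here.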

Additional observations from a re-analysis of the deposited data

Results flagged for a closer look

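In 5 of 82 groups of 4 libraries screened, which cover the 41 members of the table in each genotype, the highest library stood far from the other 3 (Dixon's test at the 95% level). Chance flags about 1 in 20 such groups. Stat2 was at 136 CPM in WT library 1 and at 79.0 to 88.3 CPM in the other WT libraries. Samd9l was at 128 CPM in WT library 1 and at 79.9 to 86.5 CPM in the others. Ifih1 was at 132 CPM in WT library 3 and at 105 to 109 CPM in the others. Irf9 was at 58.6 CPM in deficient library 4 and at 42.3 to 44 CPM in the other deficient libraries. Ifi35 was at 36.5 CPM in deficient library 4 and at 24.1 to 25.1 CPM in the others.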

How the results depend on the processing

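Under the alternatives, Trim25 fell in all 19 (edgeR or other adjusted p at most 0.0346) and Oasl1 in 16, the exceptions being without deficient library 3, without WT library 3 and without deficient libraries 1 and 3 together. Against 0 members higher and 2 lower in the main test, DESeq2 gave 1 and 8 (13.9% of all genes lower), limma-voom 0 and 10 (11.3% lower), library size alone 2 and 2 (15.2% of all genes higher, 7.41% lower), limma on log2(FPKM + 1) 2 and 3 (16.6% and 8.43%), and limma on log2(FPKM + 0.1) 2 and 2 (16.5% and 8.44%). Leaving out each library gave 0 to 1 higher and 1 to 9 lower, with 9 without deficient library 4 (8.74% of all genes lower), 5 without deficient library 2 (11.3%), 1 without deficient library 3 (5.61%) and 1 without WT library 3 (4.54%). The members added without deficient library 4 were Ddx58, Ifit1, Ifit3, Isg20, Parp14, Rtp4 and Usp18. The cause was not tested. All genes changed numbered 2264 in the main test and 982 (without WT library 3) to 2388 with each library left out, and pathway genes 4 to 6 higher and 4 to 16 lower. Without deficient libraries 1 and 3 together, which leaves 2 deficient libraries, 242 genes changed, with 1 member lower and 2 pathway genes higher and 3 lower. The replicate block gave 0 members higher and 3 lower (8.85% of all genes lower), adding Ddx58. Because the labels give the libraries only a shared number, it was not read as a paired test. Of the 4 deficient libraries, 0 correlated best with their own number. The median of the members stayed between -0.47 and -0.12 over all settings. Library size alone moved the median of all genes to 0.14, and limma on FPKM to 0.095 and 0.13, and in these fits Ifnar1 and Zbp1 were called higher. Zbp1 was also called higher by DESeq2 and without deficient library 2, where that median was -0.0081 and -0.00097.

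The sign changed in 14 of 40 members under at least 1 alternative, and 0 of these values passed the threshold. The opposite-sign values reached 0.376 for Oas1g and 0.355 for Oas3 (without WT library 1), and 0.32 for Oasl2 and 0.211 for Herc6 (without deficient libraries 1 and 3 together). Other log2 differences with the opposite sign were 0.079, 0.060, 0.062 and 0.095 for Ifi35 (library size alone, limma with a pseudocount of 1 and of 0.1, and without deficient libraries 1 and 3). They were 0.024, 0.064 and 0.070 for Stat2 (library size alone and limma with 1 and 0.1), 0.095 for Ifih1 (without deficient libraries 1 and 3), -0.0037, -0.0037, -0.049 and -0.048 for Isg15 (DESeq2, RLE factors, limma-voom and the replicate block), and -0.0054 and -0.0049 for Lgals3bp (limma-voom and the replicate block). With each library left out the ranges were -0.25 to 0.014 for Ifi35, -0.047 to 0.26 for Irf7, -0.0045 to 0.20 for Irf9, -0.24 to 0.15 for Isg15, -0.092 to 0.14 for Lgals3bp and -0.19 to 0.093 for Stat2.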
